A study of Rattus norvegicus with 8 samples.

Results

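Cholesterol is built in the cell from acetyl-CoA by way of mevalonate, farnesyl diphosphate, squalene and lanosterol, or taken up in lipoproteins and released from lysosomes. The genes of the synthesis enzymes are switched on together by the transcription factor SREBP2, which leaves the endoplasmic reticulum with its escort protein SCAP when membrane sterol is low and is held back there by the INSIG proteins when sterol is high. Oxysterols, which accumulate with cholesterol, activate the LXR nuclear receptors, and these switch on the ABC transporters that export cholesterol. In the newborn lung, alveolar type 2 cells need cholesterol for pulmonary surfactant, and macrophages clear surfactant lipid.

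The genes described here are 32 genes of cholesterol synthesis, sterol sensing, intracellular movement and efflux, chosen by name. A gene was taken where the array's annotation pairs a row with that symbol only, which held for 31 of the 32, out of 22093 genes named in this way. Lss, the only one with several rows, was taken at its brighter row. All 31 passed the filter on low signals (a mean log2 signal of at least 5.32, the percentile 30 of gene means), so all 31 were among the 15465 genes tested. Hmgcs1, whose product makes HMG-CoA ahead of mevalonate, had no row under the annotation and is given only from the authors' deposited table.

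Whole lungs of 8 newborn rats were measured, each on its own 1-colour Affymetrix array, in deposited log2 units. The titles put 4 lungs in a group from vitamin D deficient mothers, whose diet is read here as having no added vitamin D (0 IU per kg). The other 4 are titled control and are labelled as from vitamin D adequate mothers, read here as fed 1000 IU per kg. Calcium (0.5%) and phosphorus (0.4%) were the same in the diets, all dams were kept without ultraviolet light at Denver altitude, and deficient dams with serum 25-hydroxyvitamin D below 10 ng/ml at 8 weeks of age were mated with vitamin D replete males. The labels give the age as day 0 and the harvest as day of life 1. They give neither the strain nor the sex of the pups, nor the litters they came from, so the p-values below measure only the spread between these lungs. The comparison asks how lung RNA at birth differs with the mother's vitamin D status.

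Titles and the authors' deposited table name the groups in opposite ways. Each of the 8 columns of that table holds, to within 5e-05 log2 units, what the titles give for the lung with the same number in the opposite group. The groups are therefore called titled deficient and titled adequate, every direction below is by title, and with the naming of that table every direction turns round. The lungs also differed in signal from the Y chromosome. Ddx3y, a Y-linked RNA helicase gene, read 5.90, 5.77, 5.88 and 5.71 in titled deficient 1 to 4, against 13.45, 13.43, 8.71 and 7.40 in titled adequate 1 to 4. Y-linked signal thus separated the groups and also set titled adequate 1 and 2 apart from 3 and 4, and the titled grouping and the Y-linked signal cannot be told apart in these 8 lungs. Counts are therefore also given without each of these pairs. Median log2 signals per array lay between 5.499 and 5.647 over all rows other than controls. Over the named genes they lay between 6.599, in titled deficient 4, and 6.734.

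Most cholesterol synthesis genes were lower in the titled deficient lungs, while the cholesterol exporter gene Abca1 was higher there. Of the 31 genes, 19 were lower in titled deficient at an adjusted p below 0.05 (limma, adjusted over all 15465 genes), against 13.7% of all genes tested. In the other direction 1 gene passed, against 8.24% of all genes tested, and 11 genes did not pass. At an unadjusted limma p under 0.05, 21 were lower and 1 was higher. Of all 15465 genes tested, 5789 reached that unadjusted p in either direction. The median log2 difference, titled deficient minus titled adequate, was -0.43 over the 31 genes and -0.018 over all genes. All 4 titled deficient lungs lay below all 4 titled adequate lungs for 19 genes (16.7% of all genes tested) and above them for 1 (11.3% of all genes tested). A difference of at least 2-fold among the genes that passed as lower was found for 5 of the 31, against 1.74% of all genes tested. The number lower was 14 without titled adequate 3 and 4 and 15 without titled adequate 1 and 2. Over all 15465 genes tested, the numbers lower in these settings were 1717 and 1788, against 2116 with all 8 lungs.

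**Figure D1:**
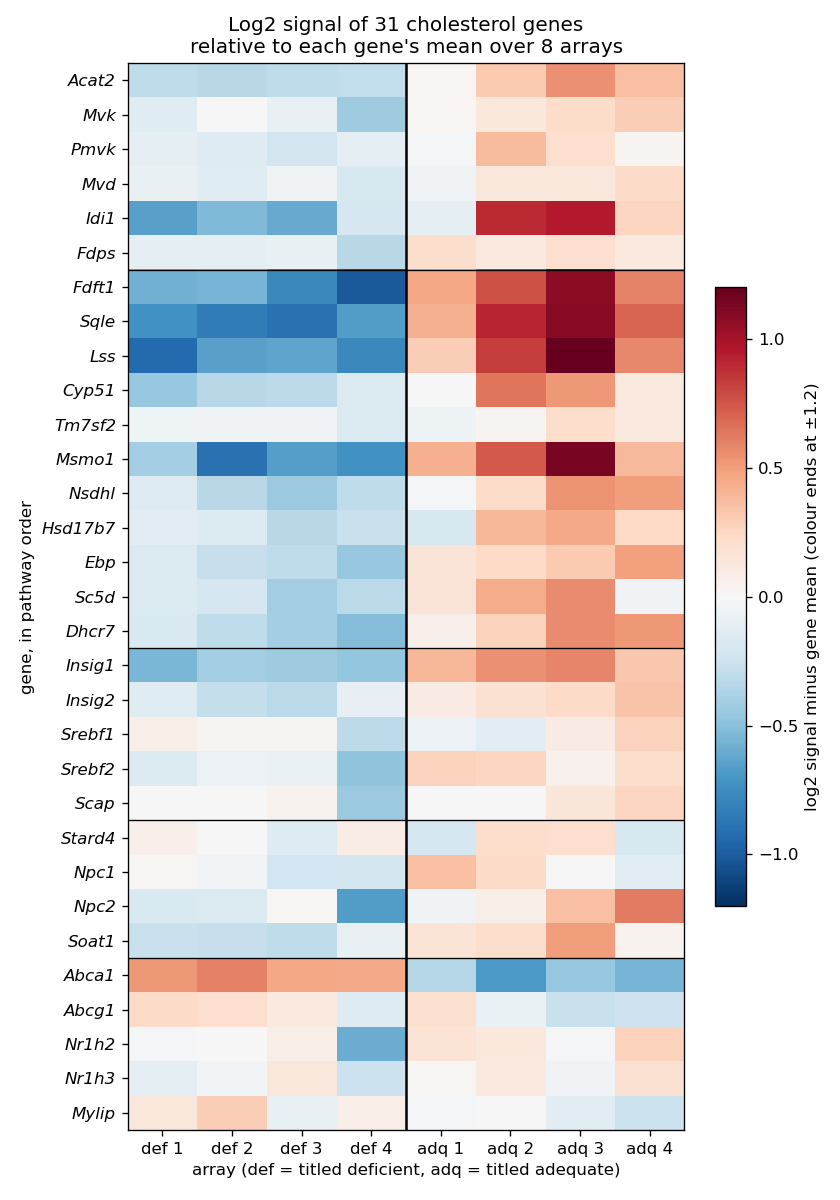
Log2 signal of each of the 31 genes (rows, in pathway order, with lines between mevalonate enzymes, sterol enzymes, SREBP control, movement and storage, and efflux and LXR genes) on each of the 8 arrays (columns, titled deficient left of titled adequate), minus the gene's mean over the 8 arrays. Of the 17 enzyme rows, 15 are lower in all 4 titled deficient columns than in any titled adequate column, and Tm7sf2 and Hsd17b7 overlap. Titled adequate 1 is the lowest of its group for 14 of 17 enzymes (not for Fdps, Msmo1 and Sc5d). Abca1 is higher in the titled deficient columns.

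The promoters of the genes were examined for what the choice of members did not use. RefSeq (build GRCr8) gave a promoter for 27 of the 32 genes, with Pmvk, Fdft1, Sqle, Stard4 and Abcg1 not analysed here. In the 250 bases before the start, on either strand, the NF-Y box CCAAT was present in 19 of 27 (70.4%), against 35.0% of the promoters of genes tested. NF-Y is a known partner of SREBP. The NF-Y box was present in 13 of the 16 promoters of genes that were lower (not in Acat2, Cyp51 and Dhcr7) and in 5 of the 9 of genes that did not pass (Mvk, Tm7sf2, Srebf1, Npc2 and Mylip). The Sp1 box GGGCGG was present in 22 of 27 (81.5%), against 52.0%, and in 13 of the 16 of genes that were lower and 7 of the 9 of genes that did not pass. The strict sterol regulatory element core TCACNCCAC was in 0 of 27, against 0.91%, and a shorter form, TCACNCCA, tried after this count was known, was in 2 of 27 (7.41%), against 2.86%. The longer and shorter forms overlap each other, and a match is only a match of letters. The 200 bases before the start are shown for 6 genes that were lower, for Mvk, which did not pass, and for Abca1, which was higher. They were picked with the matches known, to show lower genes with the NF-Y box and one without it (Cyp51), and a gene with the box that did not pass (Mvk). Capitals mark the NF-Y box, the Sp1 box and the shorter sterol form, in either orientation.
Idi1 promoter, chr17:66547525-66547724, minus strand: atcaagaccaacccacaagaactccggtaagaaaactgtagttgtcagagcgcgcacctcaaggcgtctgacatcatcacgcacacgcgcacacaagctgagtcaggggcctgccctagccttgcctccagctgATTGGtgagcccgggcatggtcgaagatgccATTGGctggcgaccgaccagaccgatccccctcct
Lss promoter, chr20:12118231-12118430, minus strand: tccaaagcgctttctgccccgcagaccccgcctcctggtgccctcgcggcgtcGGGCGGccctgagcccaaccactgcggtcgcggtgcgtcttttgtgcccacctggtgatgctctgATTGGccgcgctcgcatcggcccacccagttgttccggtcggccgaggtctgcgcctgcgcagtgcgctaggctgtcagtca
Msmo1 promoter, chr16:29746913-29747112, plus strand: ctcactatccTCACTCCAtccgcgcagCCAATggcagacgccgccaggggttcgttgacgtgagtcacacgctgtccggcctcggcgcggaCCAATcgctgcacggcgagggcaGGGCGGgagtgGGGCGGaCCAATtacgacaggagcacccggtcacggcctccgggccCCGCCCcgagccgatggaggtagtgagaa
Cyp51 promoter, chr4:30991493-30991692, plus strand: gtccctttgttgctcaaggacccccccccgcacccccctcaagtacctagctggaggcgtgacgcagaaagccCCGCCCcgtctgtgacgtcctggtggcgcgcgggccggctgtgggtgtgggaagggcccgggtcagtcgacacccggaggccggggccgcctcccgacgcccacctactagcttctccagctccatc
Insig1 promoter, chr4:8057770-8057969, minus strand: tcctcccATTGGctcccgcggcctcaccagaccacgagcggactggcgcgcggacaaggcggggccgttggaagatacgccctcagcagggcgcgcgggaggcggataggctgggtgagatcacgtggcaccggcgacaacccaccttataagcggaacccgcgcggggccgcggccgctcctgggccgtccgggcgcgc
Srebf2 promoter, chr7:115543107-115543306, plus strand: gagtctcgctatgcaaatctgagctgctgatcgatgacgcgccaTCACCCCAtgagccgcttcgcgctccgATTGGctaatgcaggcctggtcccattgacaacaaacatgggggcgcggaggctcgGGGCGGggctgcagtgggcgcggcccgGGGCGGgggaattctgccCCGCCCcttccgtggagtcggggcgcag
Mvk promoter, chr12:47819504-47819703, minus strand: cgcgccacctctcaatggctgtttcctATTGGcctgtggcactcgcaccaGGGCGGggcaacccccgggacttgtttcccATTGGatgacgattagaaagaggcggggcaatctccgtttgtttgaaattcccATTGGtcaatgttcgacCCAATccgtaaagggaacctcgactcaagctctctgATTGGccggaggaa
Abca1 promoter, chr5:72596474-72596673, minus strand: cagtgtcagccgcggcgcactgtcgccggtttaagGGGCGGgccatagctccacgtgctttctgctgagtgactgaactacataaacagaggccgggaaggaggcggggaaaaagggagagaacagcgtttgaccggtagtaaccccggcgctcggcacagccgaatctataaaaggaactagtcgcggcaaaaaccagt

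Msmo1 holds 3 NF-Y boxes and 3 Sp1 boxes in these 200 bases, and the shorter sterol element once. Srebf2 holds 1 NF-Y box, 3 Sp1 boxes and the shorter sterol element once. Idi1 holds 2 NF-Y boxes, Lss 1 of each box, and Insig1 1 NF-Y box. Cyp51 holds 1 Sp1 box and no NF-Y box, and Mvk holds 5 NF-Y boxes and 1 Sp1 box. Abca1 holds 1 Sp1 box and neither of the other motifs.

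The mevalonate stage had 5 of 6 measured genes lower in titled deficient and 0 higher, with log2 differences from -1.0 to -0.23. The shares over all genes tested were 13.7% lower and 8.24% higher. Idi1 encodes the isomerase that supplies the second isoprene building block. It read 8.61, 8.74, 8.66 and 9.06 in titled deficient 1 to 4, against 9.16, 10.16, 10.22 and 9.52 in titled adequate 1 to 4. The groups did not overlap, but titled adequate 1 lay close to titled deficient 4, and the spread was wider in titled adequate (SD 0.51) than in titled deficient (SD 0.20). Idi1 was 2.0-fold lower (log2 difference -1.0, SE 0.23, adjusted p = 0.0147). Acat2, the cytosolic thiolase that joins acetyl-CoA units at the head of the pathway, read 7.32 ± 0.01 in titled deficient and 7.94 ± 0.22 in titled adequate (SD, n = 4 each). It was 1.54-fold lower (log2 difference -0.62, SE 0.11, adjusted p = 0.00465).

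The remaining mevalonate genes differed by smaller amounts. Fdps, which encodes farnesyl diphosphate synthase, read 7.03 ± 0.11 in titled deficient and 7.35 ± 0.05 in titled adequate (SD, n = 4 each), 1.25-fold lower with adjusted p = 0.0187 by limma. Its call was lost without titled adequate 3 and 4 (adjusted p = 0.0578) and without titled adequate 1 and 2 (adjusted p = 0.0618). Pmvk, the phosphomevalonate kinase gene, had a log2 difference of -0.30 (adjusted p = 0.0466), and Mvd, the mevalonate diphosphate decarboxylase gene, of -0.23 (adjusted p = 0.0439). Both sat near the threshold: leaving out 1 lung gave adjusted p values from 0.0328 to 0.108 for Pmvk and from 0.0212 to 0.105 for Mvd. Mvd was also dim, at 5.64 ± 0.06 in titled deficient and 5.88 ± 0.11 in titled adequate (SD, n = 4 each), not far above the filter at 5.32. Mvk, the mevalonate kinase gene, did not pass (adjusted p = 0.0516 for a log2 difference of -0.33 with SE 0.11), although its 4 titled deficient lungs, at 7.18 to 7.60, all lay below its titled adequate lungs, at 7.63 to 7.90.

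Hmgcs1 was listed in the authors' deposited table with a signed fold of 3.82, its named deficient group over its named control, which by title is lower in deficient. The row that table names read 10.23, 9.96, 9.95 and 10.04 in titled deficient 1 to 4, against 11.44, 12.31, 12.42 and 11.50 in titled adequate 1 to 4. The groups did not overlap, and their means differed by -1.87 on the log2 scale. That row was not part of the fit and has no test here.

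The sterol stage, from squalene to cholesterol, had 10 of 11 genes lower in titled deficient and 0 higher, with a median log2 difference of -0.64. Here too the shares over all genes tested were 13.7% lower and 8.24% higher. The differences above 2-fold were at squalene synthesis, at squalene oxidation and cyclisation, and at a sterol demethylation step. Sqle encodes squalene epoxidase, a rate-controlling step of the sterol branch. It read 9.65, 9.54, 9.48 and 9.71 in titled deficient 1 to 4, against 10.80, 11.29, 11.47 and 11.07 in titled adequate 1 to 4. The lowest titled adequate lung was still more than 1 log2 unit above the highest titled deficient lung. The log2 difference was -1.56 (95% interval -1.88 to -1.25).

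Fdft1 encodes squalene synthase, which commits farnesyl diphosphate to sterols. It read 9.55, 9.57, 9.35 and 9.12 in titled deficient 1 to 4, against 10.59, 10.89, 11.20 and 10.72 in titled adequate 1 to 4. The groups were separated by about 1 log2 unit, and the log2 difference was -1.45 (95% interval -1.79 to -1.11). Lss encodes lanosterol synthase, which closes the sterol rings, and its main row read 7.96, 8.25, 8.26 and 8.12 in titled deficient 1 to 4, against 9.19, 9.73, 10.20 and 9.47 in titled adequate 1 to 4. The dimmer Lss row gave a log2 difference of -1.29 (adjusted p = 0.00317) where the main row gave -1.50 (adjusted p = 0.00122). Both rows put every titled deficient lung below every titled adequate lung. Msmo1, the methylsterol monooxygenase gene of the demethylation steps after lanosterol, read 10.13, 9.64, 9.87 and 9.81 in titled deficient 1 to 4, against 10.96, 11.27, 11.67 and 10.92 in titled adequate 1 to 4. Its log2 difference was -1.35 (SE 0.17, adjusted p = 0.00132), again with no overlap.

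The other steps from lanosterol to cholesterol that passed were lower by 1.36-fold to 1.64-fold. Dhcr7, whose product reduces 7-dehydrocholesterol, also the precursor of vitamin D in skin, to cholesterol, read 6.47, 6.35, 6.25 and 6.14 in titled deficient 1 to 4, against 6.72, 6.93, 7.22 and 7.18 in titled adequate 1 to 4. The groups did not overlap, and Dhcr7 was 1.64-fold lower (log2 difference -0.71, SE 0.12, adjusted p = 0.00443). Cyp51, the lanosterol demethylase gene, was 1.56-fold lower (adjusted p = 0.0162). Nsdhl, a sterol dehydrogenase gene, was 1.54-fold lower (adjusted p = 0.0102), and Ebp, a sterol isomerase gene, was 1.52-fold lower (adjusted p = 0.00418). Nsdhl and Ebp lie on the X chromosome, and Y-linked signal differed between the groups as given above; the part of this in their differences was not tested. Sc5d, the desaturase gene that makes 7-dehydrocholesterol, was 1.47-fold lower (adjusted p = 0.0185), and its call was lost without titled deficient 3 (adjusted p = 0.051) and without titled adequate 1 and 2 (adjusted p = 0.0671).

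Hsd17b7, a keto-steroid reductase gene, passed narrowly (log2 difference -0.45, adjusted p = 0.0428), and its groups overlapped because titled adequate 1 read 7.16, inside the titled deficient range of 7.02 to 7.22. Leaving out 1 lung at a time gave adjusted p values from 0.0053 to 0.102 for it. Tm7sf2, which encodes a sterol reductase acting beside another such enzyme, did not pass (log2 difference -0.15, 95% interval -0.32 to 0.02, adjusted p = 0.187).

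Over the 17 measured enzymes, titled adequate 1 was the lowest lung of its group for 14 and titled adequate 3 the highest for 11. The median deviation of the 17 from their own means over the 8 lungs was -0.18, -0.31, -0.34 and -0.33 in titled deficient 1 to 4, against 0.02, 0.38, 0.54 and 0.29 in titled adequate 1 to 4. Albumin (Alb), a liver marker, varied widely in the titled adequate group. It read 6.81, 6.39, 6.14 and 5.90 in titled deficient 1 to 4, against 5.69, 10.90, 8.64 and 9.38 in titled adequate 1 to 4. Ahsg, at 4.86, 6.43, 5.72 and 6.17 in titled adequate 1 to 4, kept the same order of these lungs over a smaller range. So did Fgb, at 5.34, 6.17, 5.80 and 6.04, and Afp, at 4.99, 5.97, 5.43 and 5.64. The liver markers Apoa2, Ttr and Serpina1 did not keep this order. Of 7 liver markers, Afp and Serpina1 lay below the level filter, and of the 5 tested, limma called 0 lower (2 at an unadjusted p under 0.05) and 1, Apoa2, higher in titled deficient. The part of liver RNA in the enzyme differences was not tested.

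**Figure D2:**
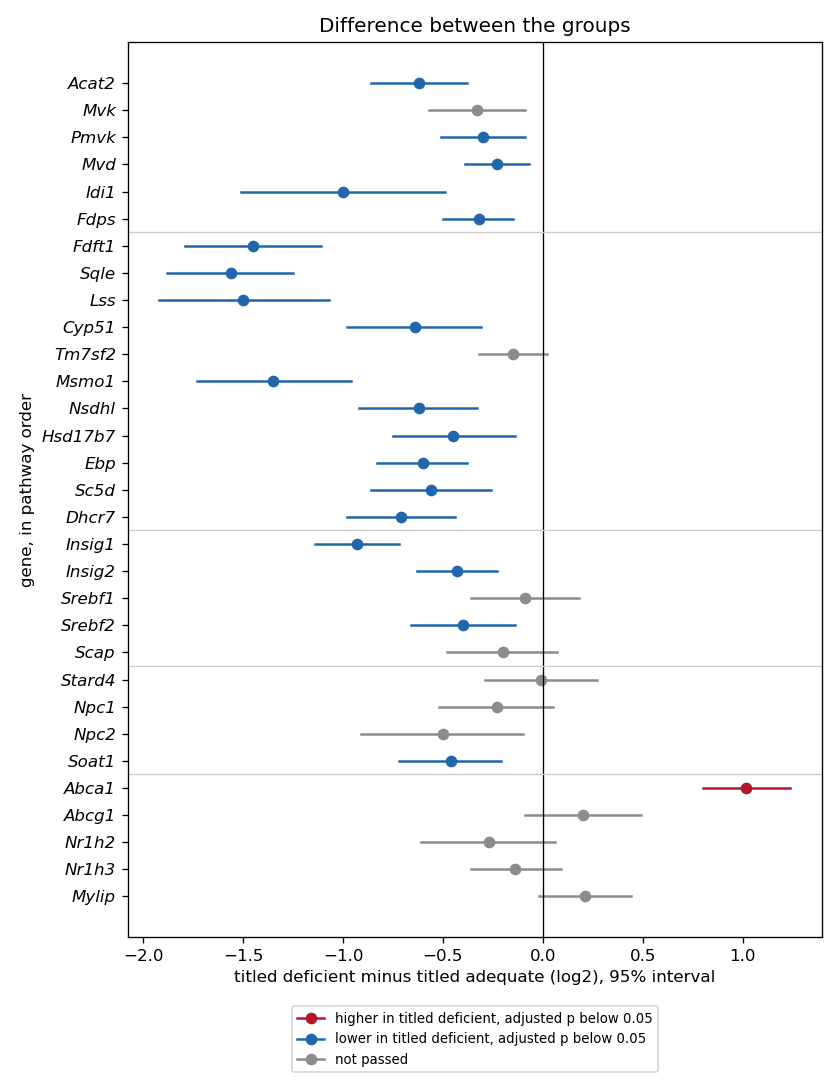
Log2 difference, titled deficient minus titled adequate (x axis), with its 95% interval from limma, for the 31 genes (y axis, in pathway order), blue for lower, red for higher and grey for not passed at an adjusted p of 0.05. Sqle, Lss, Fdft1, Msmo1 and Idi1 reach from -1.56 to -1.0, and Abca1 lies at 1.02.

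Among the genes that control SREBP, 3 of 5 were lower in titled deficient and 0 higher, against 13.7% and 8.24% of all genes tested. Insig1, which encodes the sterol-dependent retention protein and is itself an SREBP target, read 10.18, 10.31, 10.30 and 10.26 in titled deficient 1 to 4, against 11.13, 11.28, 11.31 and 11.05 in titled adequate 1 to 4. The values were tight within each group and did not overlap. Insig1 was 1.91-fold lower (log2 difference -0.93, SE 0.09, adjusted p = 0.000327). Insig2, the related retention protein gene, was 1.35-fold lower (adjusted p = 0.00967), with titled deficient lungs at 7.75 to 7.98 and titled adequate lungs at 8.18 to 8.42.

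Srebf2, which encodes SREBP2, read 11.06, 11.16, 11.15 and 10.74 in titled deficient 1 to 4, against 11.50, 11.48, 11.28 and 11.44 in titled adequate 1 to 4. The groups did not overlap, but the gap was narrow, and the call was lost in 12 of 19 alternative settings. Its log2 difference was -0.40 (SE 0.12, adjusted p = 0.0363), with adjusted p values from 0.0388 to 0.0821 when 1 lung was left out. Srebf1, which encodes the SREBP1 forms that mainly serve fatty acid synthesis, did not pass (log2 difference -0.09, 95% interval -0.36 to 0.18, adjusted p = 0.615), and its sign turned with the scaling, to 0.02 with arrays centred on their medians. Scap, the escort protein gene, did not pass either (log2 difference -0.20, 95% interval -0.48 to 0.07, adjusted p = 0.26). In Srebf1 and Scap, titled deficient 4 lay below the other lungs of its group.

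Of the genes of cholesterol movement and storage, 1 of 4 was lower in titled deficient and 0 were higher. Of all genes tested, 13.7% were lower and 8.24% higher. Soat1, which encodes the enzyme that esterifies cholesterol for storage, read 13.41, 13.40, 13.37 and 13.59 in titled deficient 1 to 4, against 13.84, 13.89, 14.18 and 13.72 in titled adequate 1 to 4. The groups did not overlap, and Soat1 was 1.38-fold lower (log2 difference -0.46, SE 0.12, adjusted p = 0.02). Leaving out 1 lung gave adjusted p values from 0.0174 to 0.0575 for Soat1. Npc2, which binds cholesterol inside the lysosome, did not pass (adjusted p = 0.0733 for a log2 difference of -0.50 with SE 0.18), and its lungs spread widely, at 11.81 ± 0.29 in titled deficient and 12.31 ± 0.30 in titled adequate (SD, n = 4 each). Npc1, the membrane partner of NPC2, did not pass (log2 difference -0.23, 95% interval -0.52 to 0.05). Stard4, a soluble sterol carrier and in mouse an SREBP target, read 9.25, 9.18, 9.03 and 9.27 in titled deficient 1 to 4, against 8.97, 9.40, 9.39 and 8.99 in titled adequate 1 to 4. The groups overlapped fully (log2 difference -0.01, 95% interval -0.29 to 0.27), and the sign turned with the scaling, to 0.10 with arrays centred on their medians.

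Of the efflux and LXR genes, 1 of 5 was higher in titled deficient and 0 were lower, against 8.24% and 13.7% of all genes tested. Abca1 encodes the transporter that passes cholesterol to apolipoprotein A-I and is a classical LXR target. It read 11.49, 11.57, 11.43 and 11.42 in titled deficient 1 to 4, against 10.63, 10.28, 10.51 and 10.41 in titled adequate 1 to 4. Every titled deficient lung lay well above every titled adequate lung, in the direction opposite to that of the enzyme genes. The log2 difference of Abca1 was 1.02 with SE 0.10, or 2.03-fold higher (adjusted p = 0.000285), and it passed in each of the 19 alternative settings, with log2 differences from 0.96 to 1.13. The other genes tied to LXR did not pass. Abcg1, the transporter that exports cholesterol to HDL, had a log2 difference of 0.20 (95% interval -0.09 to 0.49, adjusted p = 0.299). Mylip, an LXR-induced ubiquitin ligase that degrades lipoprotein receptors, had one of 0.21 (95% interval -0.02 to 0.44, adjusted p = 0.168). The LXR genes Nr1h2 and Nr1h3 had log2 differences of -0.27 (95% interval -0.61 to 0.06) and -0.14 (95% interval -0.36 to 0.09).

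**Figure D3:**
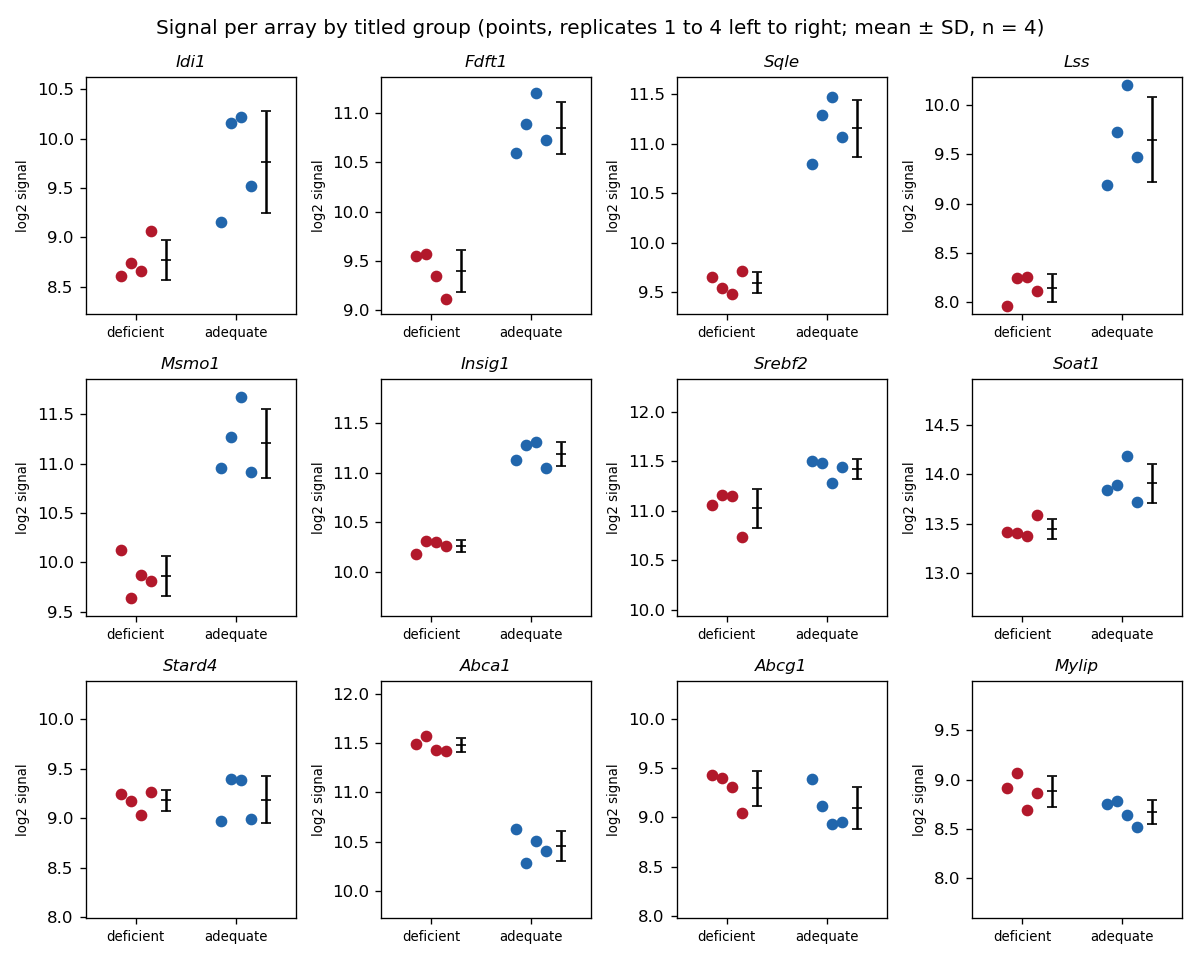
Log2 signal (y axis, all panels spanning the same height) of 12 of the genes in the 4 titled deficient lungs (red, left) and the 4 titled adequate lungs (blue, right), with mean ± SD beside the points. The groups are apart for Fdft1, Sqle, Lss, Msmo1, Insig1 and, in the opposite direction, Abca1, and they overlap for Stard4, Abcg1 and Mylip.

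The list in the authors' deposited table holds 18 of the 31 genes by row and 19 of the 32 by symbol, against 13.1% of all genes tested here by row. In that table's naming the signed fold was 3.00 for Sqle, 2.91 for Lss, 2.75 for Fdft1, 1.91 for Insig1 and -2.02 for Abca1. Abca1 thus has the opposite sign to the enzymes there. The table holds the same array values as those fitted here, so this is not a second measurement. Pmvk, Mvd and Fdps, which passed here, were not on it, whereas Npc2, which did not pass here, was listed there at 1.42.

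Genes of neighbouring pathways were set beside these, from lists drawn up with earlier results of these data known. Of all genes tested, 13.7% were lower in titled deficient and 8.24% higher. At an unadjusted limma p under 0.05, 5789 of the 15465 genes tested passed in either direction. In the side branch from farnesyl diphosphate to ubiquinone, dolichol and protein prenylation, 0 of 12 genes were lower in titled deficient and 1 was higher by limma (3 and 2 at an unadjusted p under 0.05). That gene was Pdss1, a subunit of the enzyme making the ubiquinone tail, at 7.74 ± 0.02 in titled deficient and 7.0 ± 0.09 in titled adequate (SD, n = 4 each). Its log2 difference was 0.74 (SE 0.07, adjusted p = 0.000286). Of 11 measured genes of SREBP processing and sterol-regulated degradation, 1 was lower and 0 higher (2 and 1 at an unadjusted p under 0.05). At the adjusted p, the counts of both lists were near or below the shares over all genes tested. The lower gene was Erlin1, an endoplasmic reticulum protein that takes part in sterol-dependent degradation (log2 difference -0.44, adjusted p = 0.00586).

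Among 21 other genes of sterol transport and uptake, 7 were lower in titled deficient and 0 higher (10 and 0 at an unadjusted p under 0.05). Nceh1, which encodes a hydrolase of stored cholesteryl ester, had a log2 difference of -1.07 (adjusted p = 0.00251). Gramd1b, which moves cholesterol from the plasma membrane to the endoplasmic reticulum, had one of -0.43 (adjusted p = 0.0108), and Gramd1a, of the same family, one of -0.47 (adjusted p = 0.0163). Of 4 tested oxysterol genes 2 were lower, Ephx1, a microsomal epoxide hydrolase gene better known for clearing foreign epoxides (log2 difference -0.61, adjusted p = 0.0111), and Ch25h, the cholesterol 25-hydroxylase gene (log2 difference -0.47, adjusted p = 0.0122). Ch25h was dim, at 5.25 ± 0.10 in titled deficient and 5.72 ± 0.20 in titled adequate (SD, n = 4 each), and Cyp27a1, Cyp39a1 and Cyp46a1 lay below the level filter. Of 15 fatty acid genes served by SREBP1, 6 were lower and 0 higher (7 and 0 at an unadjusted p under 0.05). Fasn, the fatty acid synthase gene, read 14.18, 14.20, 14.18 and 13.79 in titled deficient 1 to 4, against 14.76, 14.90, 15.55 and 15.44 in titled adequate 1 to 4, without overlap (log2 difference -1.07, adjusted p = 0.00492). Acacb, an acetyl-CoA carboxylase gene, had a log2 difference of -0.43 (adjusted p = 0.0051) and Acly, which supplies cytosolic acetyl-CoA, of -0.65 (adjusted p = 0.0149).

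**Figure D4:**
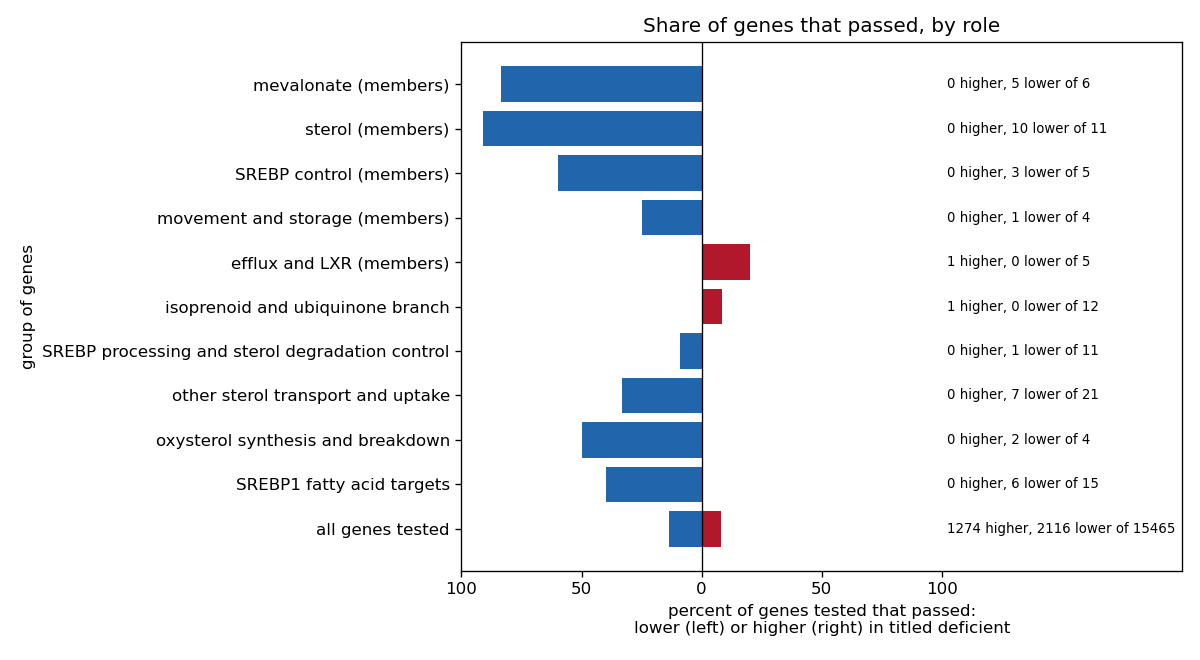
Share of genes (x axis, percent) that passed as lower (blue, to the left) or higher (red, to the right) in titled deficient, for 5 roles among the 31 genes, for 5 neighbouring pathway lists and for all genes tested (y axis), with counts at the right. The enzyme roles have 5 of 6 and 10 of 11 genes lower, and all genes tested have 2116 of 15465 lower and 1274 higher.

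Markers of the lung were present in both groups. Sftpc, the surfactant protein gene that defines type 2 cells, read 19.86 in titled deficient and 19.87 in titled adequate (means, n = 4 each). Sftpc lay near the highest signal in the data on every array, so its near-equal means cannot show equal type 2 cell content. Markers of several cell types were lower in the titled deficient lungs. Of all genes tested, 13.7% were lower and 8.24% higher. Of 11 alveolar type 2 cell markers, 7 were lower in titled deficient and 0 higher, with a median log2 difference of -0.43. Their summed signal was 20.79 to 20.84 in titled deficient lungs and 21.00 to 21.08 in titled adequate lungs (log2). These sums, and those below, add unlogged signals, so the brightest markers weigh most. Sftpc is the brightest type 2 marker, Lyz2 the brightest macrophage marker and Cdh5 the brightest endothelial marker. Of 9 macrophage and monocyte markers 5 were lower and 1, Marco, was higher, with a median log2 difference of -0.89. Their sums were 14.76 to 14.89 in titled deficient and 14.93 to 15.50 in titled adequate, and Lyz2 did not pass (limma adjusted p = 0.299). Of 5 lipofibroblast markers 4 were lower and 0 higher, with sums of 14.01 to 14.30 in titled deficient and 14.81 to 14.95 in titled adequate. Neutrophil markers differed far more, with 7 of 8 tested markers lower and sums of 9.88 to 10.47 in titled deficient and 13.98 to 14.94 in titled adequate. Of 6 type 1 cell markers 2 were lower and 0 higher (sums of 16.51 to 16.94 in titled deficient and 17.02 to 17.12 in titled adequate). Of 5 endothelial markers, limma called 0 lower (0 at an unadjusted p under 0.05) and 1, Cdh5, higher (sums of 16.93 to 17.23 in titled deficient and 16.70 to 16.97 in titled adequate). The fat markers Ucp1, Adipoq, Plin1 and Lep, and the steroid gland markers Cyp11a1, Cyp17a1 and Cyp21a1, lay below the level filter in these lungs. Cidea, the other fat marker, lay above it and did not pass (log2 difference 0.16, limma adjusted p = 0.234). Star passed as higher in titled deficient, and limma called 0 of 3 tested heart markers (0 at an unadjusted p under 0.05). In whole lung, fewer cells of a type and less RNA per cell cannot be told apart, and the part of these cell types in the cholesterol gene differences was not tested.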

How the data were processed

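The deposited log2 values come from SST-RMA at gene level, run by the authors in Expression Console, per the labels and the submitters' processing notes. The version and the build were not given in the sources used here. RMA makes array distributions alike, so differences are relative to the other genes. The signed fold score of the authors' deposited table is a ratio of means, given as minus its reciprocal when under 1, for a list selected at a false discovery rate by significance analysis of microarrays, per its information sheet. Its column names oppose the titles, which were kept for the grouping.

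Of 68842 transcript clusters, 23446 carry 1 symbol, giving 22093 genes, each at its row with the highest mean. The 15465 at or above the percentile 30 of means entered 1 linear model per gene in limma 3.58.1 under R 4.3.3 (eBayes with trend, 4 arrays against 4, no covariate, 2-sided), adjusted by Benjamini-Hochberg over all of them, threshold 0.05. Errors are moderated standard errors. The fit was tested on simulated data. All genes listed as members are named; of each neighbouring list, up to 3 with the smallest p that passed. Genes and lists were chosen with earlier results of these data known. Alternatives covered filter, row choice, scaling, variance trend, replicate number as a block and leaving out lungs. The number of arrays limits the precision.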

Additional observations from a re-analysis of the deposited data

Results flagged for a closer look

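Among the 62 groups of 4 lungs checked (31 genes, both groups), 5 had a lung whose gap to its nearest neighbour took up more of the group's range than Dixon's 95% critical value, and chance marks about 1 in 20 groups. In all 5 it was titled deficient 4, as the lowest of its group. That array also had the lowest median over named genes, at 6.599 against 6.662 to 6.734 in the others. Its background rows were the lowest too, at 3.71 against 3.82 to 3.92. The part of this in the flagged readings was not tested. Fdps read 6.86 there, against 7.08 to 7.10 in the other titled deficient lungs, and Tm7sf2 read 6.43, against 6.55 to 6.56. Srebf1 read 7.70, against 8.04 to 8.08, Scap 8.11, against 8.55 to 8.60, and Nr1h2 7.74, against 8.32 to 8.41. Without titled deficient 4, Fdps was still lower in titled deficient (log2 difference -0.27, limma adjusted p = 0.0258), although it lost its call without titled adequate 3 and 4 (0.0578) and without titled adequate 1 and 2 (0.0618). By the same test, Scap (-0.09), Nr1h2 (-0.12) and Tm7sf2 (-0.12) did not pass with or without titled deficient 4.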

How the results depend on the processing

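Of the 20 genes that passed, 13 did so in each alternative in which they were tested and 0 turned sign: Acat2, Idi1, Fdft1, Sqle, Lss, Cyp51, Msmo1, Nsdhl, Ebp, Dhcr7, Insig1, Insig2 and Abca1. The other 7, Pmvk, Mvd, Fdps, Hsd17b7, Sc5d, Srebf2 and Soat1, lost the call in at least 1. The number lower in titled deficient was 16 with no level filter, after loess and after a second quantile normalization, 14 with arrays centred on their medians, 12 with the replicate block (Fdps at adjusted p = 0.066 and Sc5d at 0.0514 among the calls lost) and 13 to 18 with 1 lung left out. The number higher was 1 throughout. With 1 lung left out, the median difference lay between -0.47 and -0.37. Non-overlapping genes then numbered 20 to 23, but leaving out a lung can only keep or raise this count, so it cannot show stability. After centring, the median difference and this count were -0.32 and 14, and after quantile normalization -0.34 and 18. With the filter at percentile 50 they were -0.45 and 17 (of 27 tested), against -0.43 and 20 as deposited. Same-numbered lungs did not deviate together (correlations -0.171, 0.044, -0.353 and -0.28, against -0.136 to 0.262 for lungs of unlike number). The labels do not say whether the numbers pair lungs, and these correlations cannot settle it. Centring moved the median of all genes by 0.108. Over all genes, those lower numbered 2116, 1401 after centring, 1197 with the replicate block and 1441 to 1945 with 1 lung left out. Those higher numbered 1274, 2854 after centring, 561 with the block and 737 to 1189 with 1 lung left out, the lowest being without titled deficient 2 (737) and 1 (810). Among calls over all genes, 62.4% were lower in titled deficient as deposited, 55.4% after loess, 46.4% after quantile normalization and 32.9% after centring. Stard4 changed sign under quantile normalization (0.10), loess (0.06), centring (0.10) and when 1 lung was left out (-0.08 to 0.06). Srebf1 did so under quantile normalization (0.01), centring (0.02) and without titled adequate 3 and 4 (0.06). The causes were not tested.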
